A study of Bos taurus with 86 samples.

Results

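The heat shock proteins and chaperones, which help other proteins fold, were followed in single bovine embryos of 3 groups. Members were chosen by gene symbol: HSPA, HSPB, HSPD, HSPE, HSPH, HSP90, DNAJ, CCT, FKBP, PDIA and PPIA to PPIH, together with TCP1, CANX and CALR. The rule found 51 genes on 128 array rows, out of 4452 named genes and 16416 rows. Of these, 42 genes on 94 rows had enough values to be tested among 6278 features.

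The groups were 15 IVF embryos, 14 IVD embryos and 14 AI embryos of Bos taurus, all without any further treatment named in the labels. IVF is read as in vitro fertilization and AI as artificial insemination, while IVD is kept as a group name because the labels do not spell it out. The sources used here state neither stage nor age of the embryos. Each embryo's RNA, after 3 rounds of linear amplification, was hybridised against a common reference RNA, amplified in 2 rounds, on 2 cDNA arrays with exchanged dyes. A value here is the mean log2 ratio of embryo over reference of the array pair, so it is a relative level for 1 gene and cannot be set against that of another gene.

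Chaperones bind unfolded stretches of other proteins and release them so that they can fold. HSP70 proteins do so in cycles driven by J-domain proteins and nucleotide exchange factors, HSP90 proteins act on nearly folded clients, and chaperonins enclose a client in a chamber. Disulfide isomerases, cyclophilins and FK506-binding proteins catalyse slow folding steps, and in mouse embryos an inducible HSP70 is among the first genes transcribed from the new genome.

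The direction of the ratio is likely rather than stated: the labels do not say which dye is the numerator, and Cy5 over Cy3 was taken because 12 of 13 measured trophectoderm markers then had a mean above 0 (median 2.19). With the opposite choice every sign below turns. Of the markers of other cell types, 1 of 4 for cumulus and granulosa cells had a mean above 0, the single measured blood marker CD14 had a mean of -0.19, and no oviduct or endometrium marker was measured. Called trophectoderm markers numbered 5 of 13 for IVF versus AI, 10 for IVD versus AI and 9 for IVF versus IVD. Of the 4 cumulus and granulosa markers, 3, 1 and 2 were called in the same order. Of all features, 37.7%, 46.5% and 47.6% were called in these comparisons. The embryo's median over the trophectoderm list spanned 1.40 to 2.30 in IVF, 1.10 to 3.13 in IVD and 1.73 to 2.83 in AI embryos. Over the cumulus and granulosa list it spanned -0.32 to 0.26 in IVF, -0.41 to 0.17 in IVD and -0.75 to 0.02 in AI embryos. Data quality moved with the groups too. Rows without a value numbered 3076.5 to 5099.5 per embryo in IVF, 1001.5 to 1871.5 in IVD and 3613 to 5713 in AI embryos (mean of the array pair). The dye-swapped arrays of an embryo correlated at r = -0.911 to -0.717 in IVF, -0.767 to -0.589 in IVD and -0.912 to -0.816 in AI embryos. The part of these differences in the results below was not tested.

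Groups were compared with limma over all features, and a gene is called when its Benjamini-Hochberg adjusted p is under 0.05. Of the 42 tested chaperone genes, 19 were called for IVF versus AI (45.2%), of which 9 were higher and 10 lower in IVF embryos, where 37.7% of all features were called. For IVD versus AI, 21 were called (50%, with 9 higher and 12 lower), against 46.5% of all features. For IVF versus IVD, 24 were called (57.1%, with 13 higher and 11 lower), against 47.6% of all features. On the values as given, with the arrays not centred, the splits of higher and lower were 8 and 5, 13 and 7, and 4 and 12 for these comparisons, where the median over all features shifted to 0.32 for IVD versus AI and -0.27 for IVF versus IVD. The F-test over the 3 groups called 32 of 42, or 76.2%, against 67.1% of all features. These shares lie near those of all features, so the counts are no result about chaperones as a set. Median log2 differences of the members were 0.02, -0.18 and 0.07 in the same order of comparisons, and those of all features 0.04, 0.06 and -0.01. An embryo's value is over all its cells, so fewer cells of a type and less RNA per cell cannot be told apart. The 3 comparisons share their groups, so each difference is fixed by the other 2 and they are given side by side.

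Each call was refitted under up to 11 alternatives. They include the values as given (arrays not centred), the arrays with the embryo in 1 dye alone, the embryo number as a replicate block, and clusters of embryos by dye bias as a block, formed by Ward or by average linkage. Dye bias is the part of the ratio that an embryo's dye-swapped arrays share, and it moved with the groups: by average linkage 1 cluster held 11 IVF embryos and 1 AI embryo, another 2 IVF, 14 IVD and 13 AI embryos, and the last 2 IVF embryos. By Ward linkage 1 cluster held 13 IVF and 9 AI embryos, and another 1 IVF, 14 IVD and 5 AI embryos. The last held 1 IVF embryo. Both blocks thus largely coincided with IVF versus IVD, and the average-linkage block with IVF versus AI too. The Ward block coincided in part with IVD versus AI, as 9 AI embryos were in a cluster without IVD embryos. By average linkage 13 AI embryos shared the cluster of all 14 IVD embryos, so that block hardly bore on IVD versus AI. A call lost with such a block does not show that the difference is absent. With the average-linkage block 7 members were called for IVF versus AI, where 8.03% of all features were, and 9 for IVF versus IVD, where 20.6% of all features were. The share of all features called thus changed with the alternative, so a class count under an alternative is no result about the class. Calls held in every alternative with a value for 5 of 19 members in IVF versus AI (DNAJA4, FKBP2, HSP90AA1, HSPE1 and PPIF), 11 of 21 in IVD versus AI and 6 of 24 in IVF versus IVD. How many calls of all features held was not counted, so these numbers are no result about chaperones as a set. Some alternatives could hardly change a call. Leaving out IVD embryos 12_1 to 12_4 cannot change the IVF versus AI difference, only its error and adjusted p. Keeping rows with at least 2 embryos of every group left the differences of PPIF, among others, as they were. The dye-bias blocks also bore unequally on the comparisons, so the counts of calls that held cannot be set against each other. Differences below are of mean log2 ratios.

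**Figure D1:**
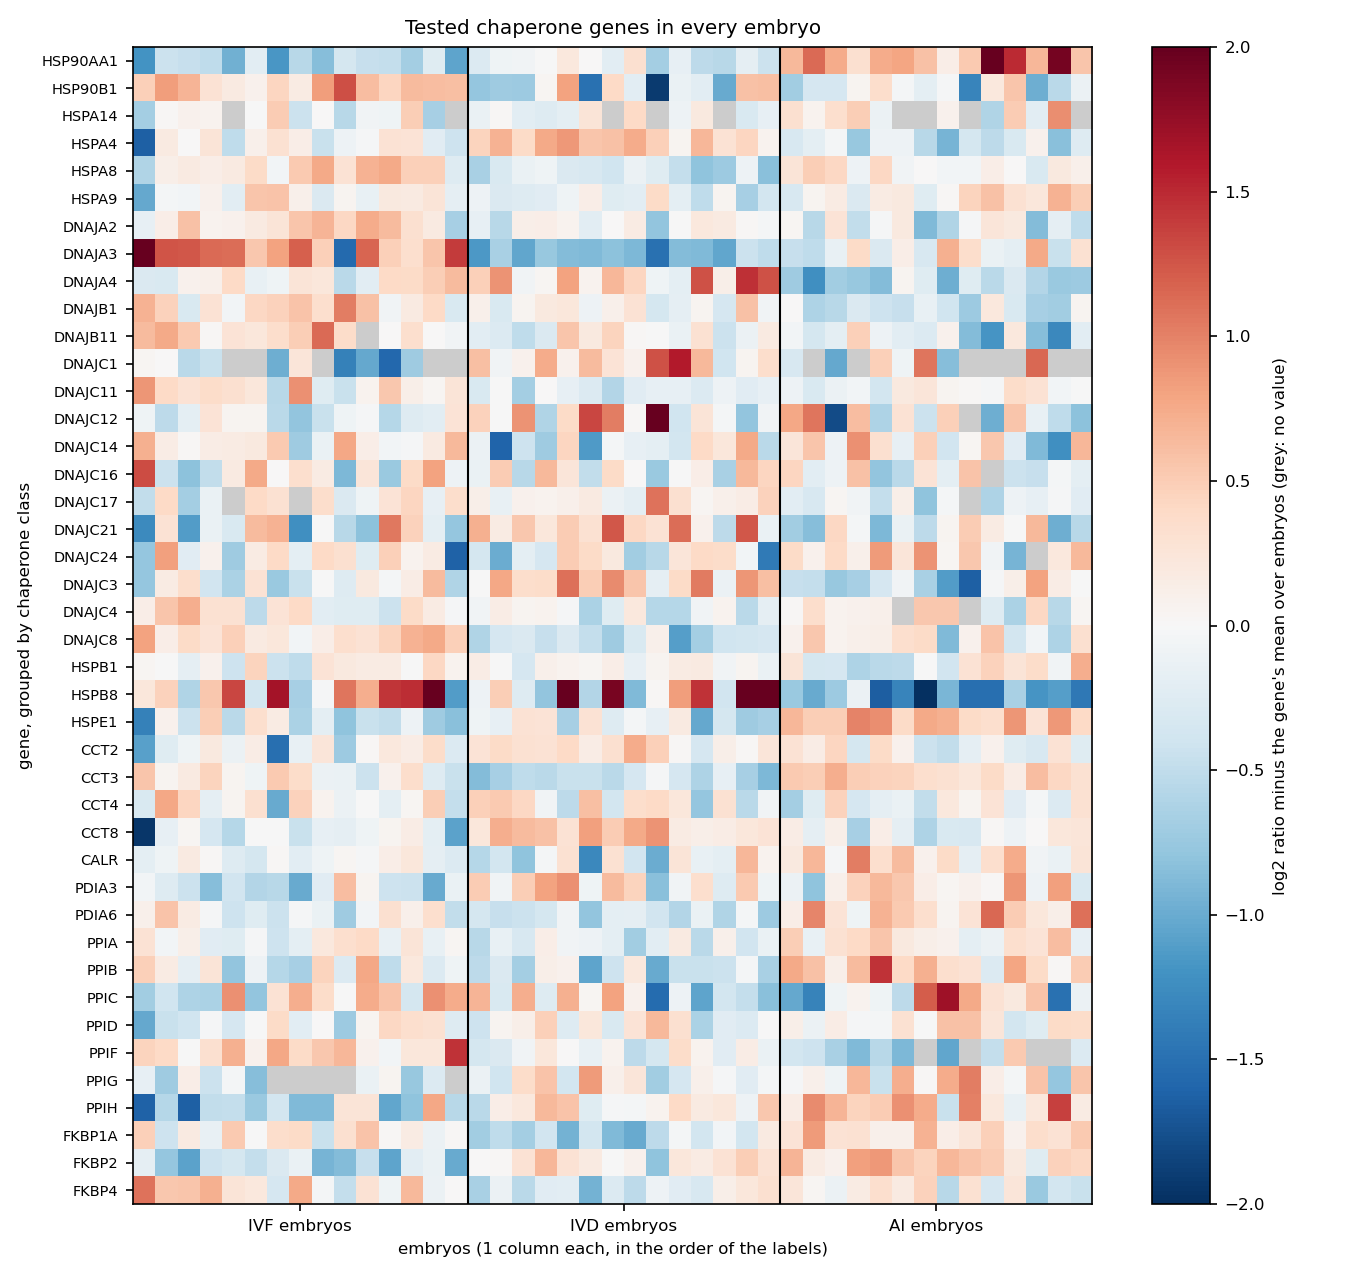
Log2 ratio of each of the 42 tested chaperone genes (rows, grouped by class) in each embryo (columns, IVF left, IVD in the middle, AI right), minus the gene's mean over all embryos; grey marks no value. HSP90AA1 and HSPE1 are high in most AI embryos, DNAJA3 is low in the IVD embryos, and HSPB8 varies most among the IVF and IVD embryos.

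**Figure D2:**
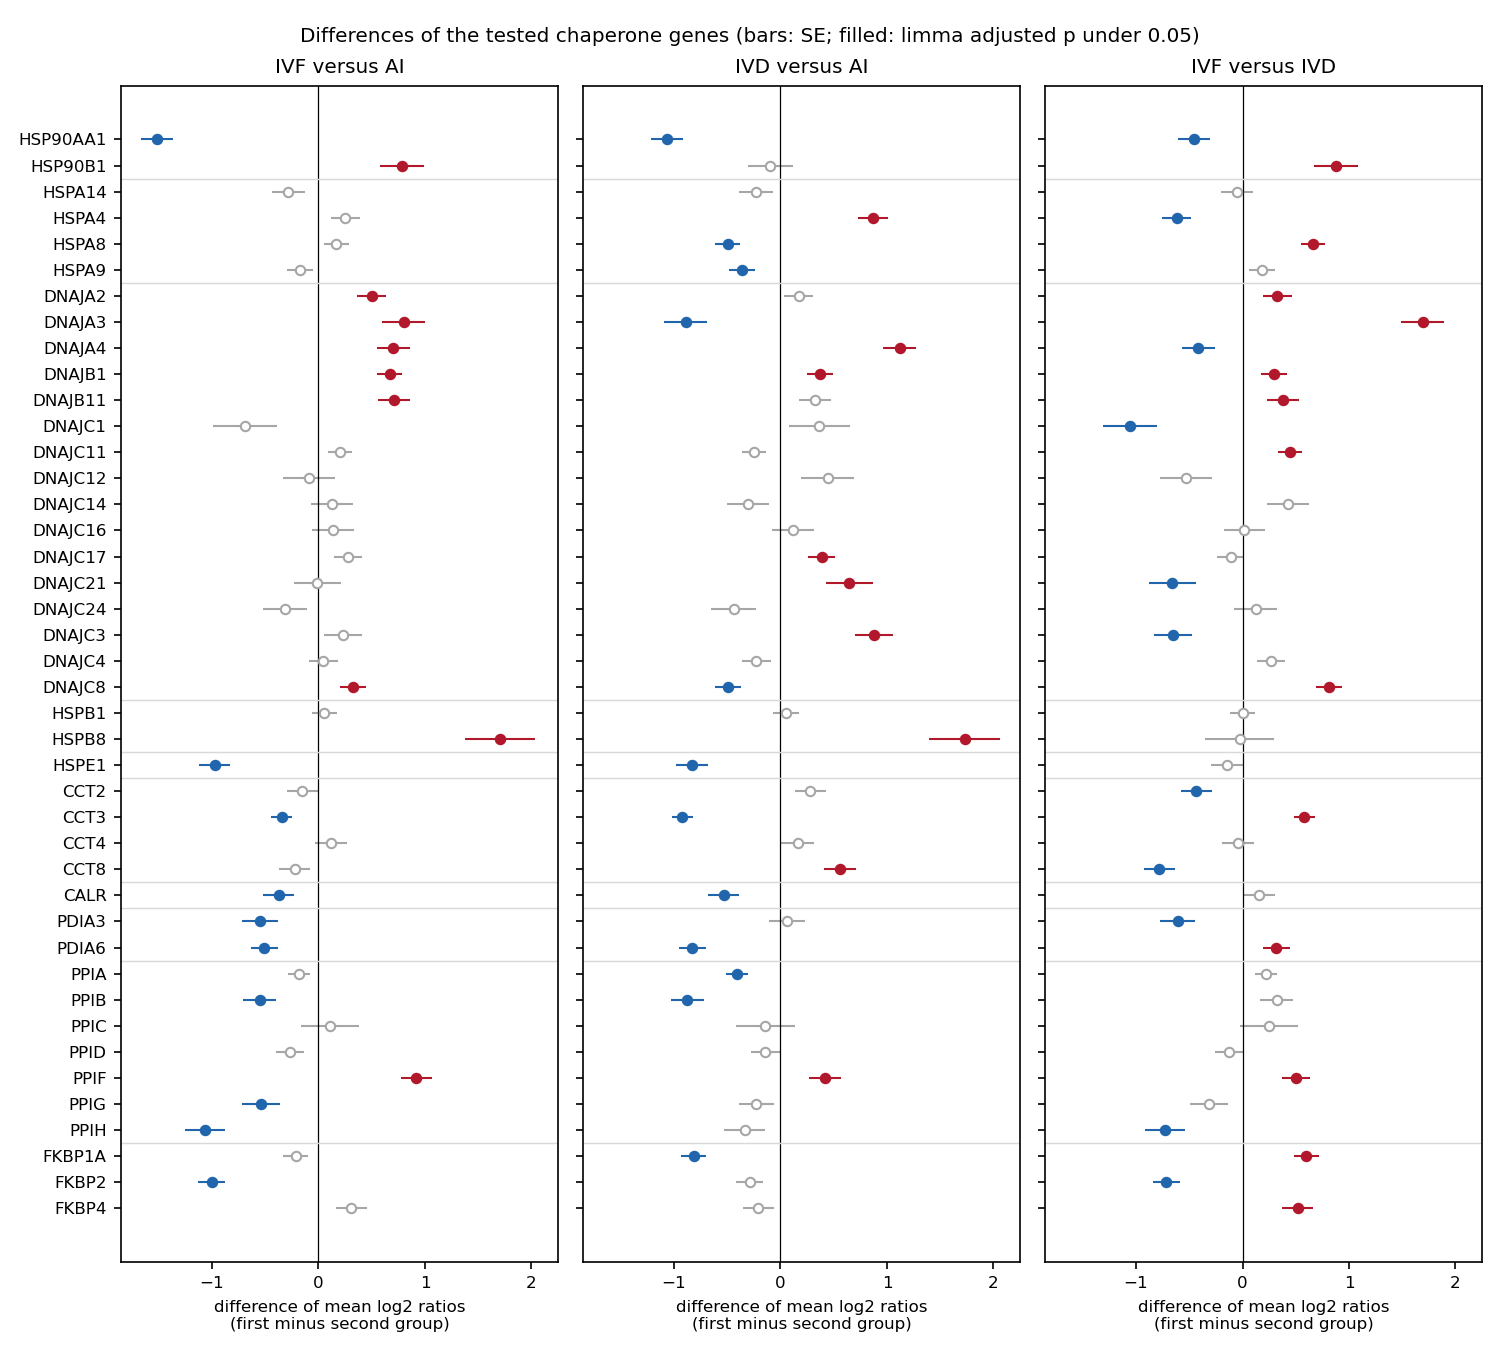
Difference of mean log2 ratios (first minus second group, bars SE) of the 42 tested chaperone genes in the 3 comparisons, with called genes filled, red where higher and blue where lower. The differences run from -1.52 (HSP90AA1) to 1.70 (HSPB8) for IVF versus AI.

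Among the HSP90 proteins, the 2 tested genes moved in opposite directions in IVF embryos. HSP90AA1, the stress-inducible cytosolic HSP90, ranged from -1.44 to -0.46 in IVF embryos (median -0.74, n = 15), -0.93 to 0.07 in IVD embryos (median -0.41, n = 14) and -0.11 to 1.75 in AI embryos (median 0.46, n = 14). Every IVF embryo lay below every AI embryo, and the IVD embryos lay between them with some overlap on each side. HSP90AA1 was 2.86-fold lower in IVF than in AI embryos, a log2 difference of -1.52 ± 0.15 (SE, adjusted p = 2.54e-10). It was also lower in IVD than in AI embryos with a difference of -1.06 ± 0.15 (SE, adjusted p = 2.66e-07). Lack of overlap in IVF versus AI was seen in 0.542% of all features and in HSP90AA1 alone among the members. HSP90AA1 was lower in IVF than in IVD embryos with a difference of -0.45 ± 0.15 (SE, adjusted p = 0.0115) as well, and that call was lost on the Cy5 arrays alone (-0.37, adjusted p = 0.0778), with the Ward dye-bias block (-0.50, adjusted p = 0.114) and with the average-linkage dye-bias block (-0.64, adjusted p = 0.0771), while the difference became -0.70 on the values as given. The other calls held under all 11 alternatives (-1.69 to -1.42) for IVF versus AI and all 11 alternatives (-1.09 to -0.81) for IVD versus AI.

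HSP90B1, the HSP90 of the endoplasmic reticulum (ER), ranged from -0.56 to 0.65 in IVF embryos (median -0.04, n = 15), -2.55 to 0.17 in IVD embryos (median -0.85, n = 14) and -1.95 to -0.08 in AI embryos (median -0.79, n = 14). Most IVF embryos lay near 0, at the upper end of the wide IVD and AI ranges. It was higher in IVF embryos, by 0.78 ± 0.21 (SE, adjusted p = 0.00278) against AI and by 0.88 ± 0.21 (SE, adjusted p = 0.000507) against IVD, and IVD versus AI was not called (-0.10). The call against AI was lost with the replicate block (0.70, adjusted p = 0.0596) and with the average-linkage dye-bias block (0.41, adjusted p = 0.315). The call against IVD was lost with the Ward dye-bias block (0.84, adjusted p = 0.0623) and with the average-linkage dye-bias block (0.47, adjusted p = 0.371). HSP90AB1, the constitutive cytosolic HSP90, was not tested: the means of its 2 rows were -0.07 and -0.09 (n = 3 each) in IVF, -0.61 and -0.58 (n = 14 each) in IVD, and -0.49 (n = 6) and -0.66 (n = 5) in AI embryos.

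In the HSP70 and HSP110 class none of the 4 tested genes was called for IVF versus AI, where 37.7% of all features were. In IVD versus AI 1 was higher and 2 lower (25.5% and 21.0% of all features), and in IVF versus IVD 1 was higher and 1 lower (22.3% and 25.2%). On the values as given the IVD versus AI counts were 1 higher and none lower. HSPA8, the constitutive cytosolic HSP70, ranged from 0.58 to 1.95 in IVF embryos (median 1.48, n = 15), 0.34 to 1.10 in IVD embryos (median 0.87, n = 14) and 0.88 to 1.68 in AI embryos (median 1.24, n = 14). The IVD embryos occupied the low end, and IVF and AI embryos covered much the same range. HSPA8 was lower in IVD than in AI embryos with a difference of -0.49 ± 0.12 (SE, adjusted p = 0.000613) and higher in IVF than in IVD embryos by 0.66 ± 0.11 (SE, adjusted p = 6.41e-06). For IVF versus AI the difference was 0.17 ± 0.11 (SE, adjusted p = 0.246). There its 2 clones disagreed: 1 clone gave 0.05 and 0.04 on its 2 rows (adjusted p = 0.803 and 0.847) and the other 0.29 and 0.30 (adjusted p = 0.0407 and 0.0297). The IVF versus IVD call held under all 11 alternatives (0.42 to 0.92), and the IVD versus AI call was lost on the values as given (-0.24, adjusted p = 0.216).

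HSPA4, an HSP110 protein that exchanges the nucleotide of HSP70, ranged from 0.17 to 2.11 in IVF embryos (median 1.82, n = 15), 1.86 to 2.68 in IVD embryos (median 2.32, n = 14) and 0.88 to 1.90 in AI embryos (median 1.496, n = 14). The IVD embryos were the highest, and IVF embryo 1 lay far below the rest of its group. HSPA4 was higher in IVD than in AI embryos by 0.87 ± 0.14 (SE, adjusted p = 2.72e-06), a call that held under all 11 alternatives (0.76 to 1.13). It was lower in IVF than in IVD embryos with a difference of -0.62 ± 0.14 (SE, adjusted p = 0.000281), a call lost with the Ward dye-bias block (-0.50, adjusted p = 0.0922). HSPA9, the HSP70 of mitochondria (mortalin), ranged from 0.40 to 2.000 in IVF embryos (median 1.48, n = 15), 0.77 to 1.81 in IVD embryos (median 1.21, n = 14) and 1.11 to 2.13 in AI embryos (median 1.61, n = 14). The groups overlapped over most of their ranges. It was lower in IVD than in AI embryos with a difference of -0.36 ± 0.12 (SE, adjusted p = 0.0153), and this call was lost under 5 of 11 alternatives (adjusted p up to 0.847). HSPA14, a ribosome-associated HSP70, was called in no comparison (differences of -0.28, -0.23 and -0.05 for IVF versus AI, IVD versus AI and IVF versus IVD).

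A pair of array rows outside the rule is described with this class. Their annotation lists 2 gene records, both under the symbol HSPA1A, the stress-inducible HSP70, so they are credited to no single gene and are not among the members. On the first row the values ranged from -0.19 to 2.21 in IVF embryos (median 0.81, n = 15), -1.69 to 0.36 in IVD embryos (median -0.79, n = 14) and -1.21 to 0.04 in AI embryos (median -0.62, n = 14). Of the 15 IVF embryos 13 were above 0, against 2 of 14 IVD embryos and 1 of 14 AI embryos. The differences were 1.64 ± 0.21 (SE, adjusted p = 1.01e-07) for IVF versus AI, -0.18 ± 0.22 (SE, adjusted p = 0.519) for IVD versus AI and 1.82 ± 0.21 (SE, adjusted p = 2.43e-09) for IVF versus IVD. The second row of the pair gave 1.67, -0.19 and 1.86 for the same comparisons. Both IVF calls held under all 11 alternatives, with differences on the first row from 1.497 to 1.81 against AI and from 1.57 to 2.002 against IVD. The first row was thus 3.12-fold and the second 3.18-fold higher in IVF than in AI embryos. Both are rows of 1 clone, so the second is no independent measurement.

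**Figure D3:**
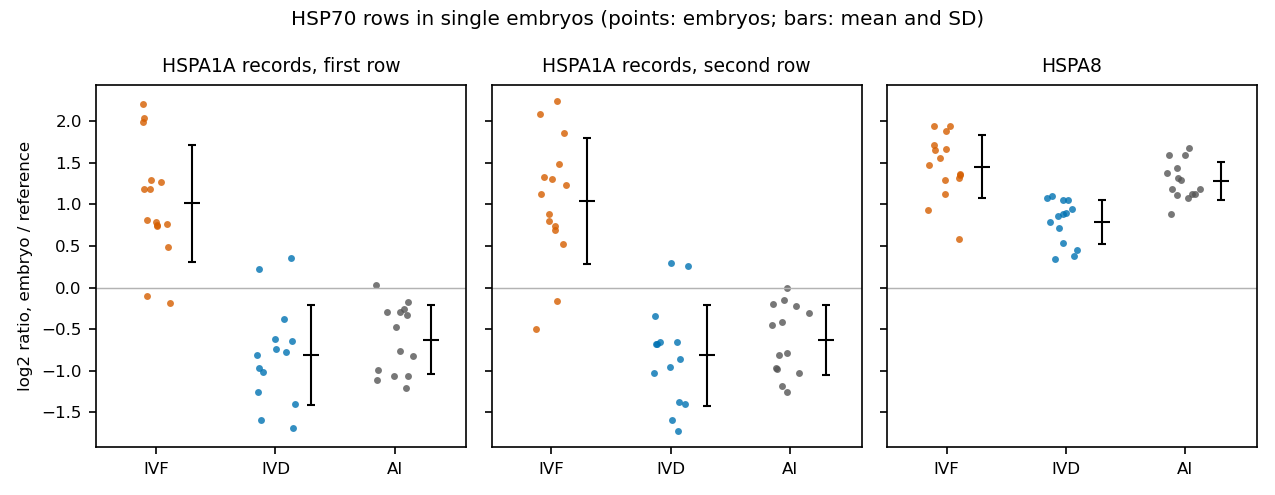
Log2 ratios of single embryos (points) with group mean and SD (bars) for the 2 rows annotated with a pair of HSPA1A records and for HSPA8. On the first row 13 of 15 IVF embryos are above 0, against 2 of 14 IVD and 1 of 14 AI embryos, while HSPA8 is above 0 in every embryo and lowest in the IVD group.

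J-domain proteins, which recruit HSP70 and stimulate its ATPase, made up 16 of the tested genes. For IVF versus AI 6 were higher and none lower: DNAJA2, DNAJA3, DNAJA4, DNAJB1, DNAJB11 and DNAJC8. That is 37.5% of the class, where 19.9% of all features were higher and 17.7% lower. On the Cy3 arrays alone the counts were 4 higher and 1 lower, and with the average-linkage dye-bias block 1 higher and none lower. The share of all features called fell with that block as well, so the smaller count is no result about J-domain proteins. For IVD versus AI 5 were higher and 2 lower (25.5% and 21.0% of all features). For IVF versus IVD 6 were higher and 4 lower (22.3% and 25.2% of all features), and on the values as given 2 were higher and 5 lower.

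DNAJA3, the mitochondrial partner of HSPA9, ranged from -1.52 to 2.07 in IVF embryos (median 1.16, n = 15), -1.45 to -0.39 in IVD embryos (median -0.84, n = 14) and -0.47 to 0.81 in AI embryos (median -0.10, n = 14). All IVD embryos were negative, all IVF embryos but 1 were positive, and that 1 lay below every IVD embryo. No member separated the IVF from the IVD embryos without overlap, which 3.28% of all features did. The difference of IVF versus IVD was 1.69 ± 0.20 (SE, adjusted p = 3.3e-09), which is 3.23-fold, and it held under all 11 alternatives (1.39 to 1.93). DNAJA3 was higher in IVF than in AI embryos by 0.80 ± 0.20 (SE, adjusted p = 0.0016) and lower in IVD than in AI embryos with a difference of -0.89 ± 0.20 (SE, adjusted p = 0.000414). The call against AI was lost for IVF with the average-linkage dye-bias block (1.03, adjusted p = 0.0521) and for IVD with the replicate block (-0.74, adjusted p = 0.0562).

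DNAJA4, a cytosolic partner of HSP70, ranged from -0.76 to 0.40 in IVF embryos (median -0.12, n = 15), -0.43 to 1.24 in IVD embryos (median 0.23, n = 14) and -1.45 to -0.17 in AI embryos (median -0.93, n = 14). The AI embryos were negative throughout, while the others lay on both sides of 0. It was higher than in AI embryos by 0.70 ± 0.16 (SE, adjusted p = 0.000473) in IVF and by 1.12 ± 0.16 (SE, adjusted p = 2.17e-07) in IVD embryos. Both calls held, under all 11 alternatives (0.62 to 0.79) for IVF and all 11 alternatives (0.91 to 1.37) for IVD. Its lower value in IVF than in IVD embryos, -0.42 ± 0.16 (SE, adjusted p = 0.0253), lost its call under 5 of 11 alternatives (adjusted p up to 0.307) and without IVD embryo 12_1, 12_3 or 12_4 (adjusted p up to 0.0572).

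DNAJC3, an ER-resident inhibitor of the stress kinase PERK, ranged from 0.36 to 1.78 in IVF embryos (median 1.09, n = 15), 0.96 to 2.23 in IVD embryos (median 1.66, n = 14) and -0.50 to 1.95 in AI embryos (median 0.74, n = 14). Most IVD embryos lay above most IVF and AI embryos, with overlap. It was higher in IVD than in AI embryos by 0.88 ± 0.18 (SE, adjusted p = 0.000122), under all 10 alternatives (0.78 to 1.13). It was lower in IVF than in IVD embryos with a difference of -0.65 ± 0.18 (SE, adjusted p = 0.00253), and lost that call on the Cy5 arrays alone (-0.40, adjusted p = 0.113), with the Ward dye-bias block (-0.72, adjusted p = 0.0575) and with the average-linkage dye-bias block (-0.80, adjusted p = 0.0605).

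DNAJC8, a splicing-associated J protein, ranged from -0.04 to 0.81 in IVF embryos (median 0.34, n = 15), -1.09 to 0.11 in IVD embryos (median -0.38, n = 14) and -0.87 to 0.57 in AI embryos (median 0.10, n = 14). Most IVF embryos lay above most IVD embryos, with the AI embryos spread across both. It was higher in IVF than in IVD embryos by 0.81 ± 0.12 (SE, adjusted p = 3.89e-07), under all 11 alternatives (0.57 to 0.99). Against AI embryos it was higher in IVF by 0.32 ± 0.12 (SE, adjusted p = 0.0321), a call lost under 5 of 11 alternatives (adjusted p up to 0.605) and when any 1 of 6 embryos was left out (IVF 1, 16 or 18, or AI 14, 17 or H3; adjusted p up to 0.0711). In IVD it was lower than in AI embryos with a difference of -0.49 ± 0.12 (SE, adjusted p = 0.0011), a call lost on the values as given (-0.24, adjusted p = 0.322).

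DNAJC1, a J protein of the ER membrane, ranged from -1.72 to 0.09 in IVF embryos (median -0.77, n = 10), -0.55 to 1.43 in IVD embryos (median 0.16, n = 14) and -1.17 to 0.999 in AI embryos (median -0.24, n = 7). It was the sparsest of the described members, with values for 10 IVF and 7 AI embryos but all 14 IVD embryos. It was lower in IVF than in IVD embryos with a difference of -1.06 ± 0.25 (SE, adjusted p = 0.000925), and lost that call on the Cy5 arrays alone (-0.66, adjusted p = 0.121), while the difference became -1.88 on the Cy3 arrays alone and -1.63 with the Ward dye-bias block. The other comparisons were not called (-0.69 for IVF versus AI and 0.37 for IVD versus AI).

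Of the remaining J proteins, DNAJB1, the inducible HSP40, was higher in IVF than in AI embryos by 0.67 ± 0.12 (SE, adjusted p = 2.51e-05), lost with the average-linkage dye-bias block (0.48, adjusted p = 0.135). Its other calls, 0.37 for IVD versus AI and 0.29 for IVF versus IVD, differed by clone. On 1 clone IVD versus AI gave 0.68 and 0.53, and on the other 0.11 and 0.18. For IVF versus IVD, the first clone gave 0.04 on both rows and the other 0.56 and 0.54. The IVD versus AI call was lost under 3 of 11 alternatives (adjusted p up to 0.316) and the IVF versus IVD call under 5 of 11 alternatives (adjusted p up to 0.821). DNAJB11, an ER partner of HSPA5, was higher in IVF than in AI embryos by 0.71 ± 0.15 (SE, adjusted p = 0.000294), lost with the average-linkage dye-bias block (0.38, adjusted p = 0.39). DNAJA2, another cytosolic partner of HSP70, was higher in IVF than in AI embryos by 0.50 ± 0.13 (SE, adjusted p = 0.00322), lost on the Cy3 arrays alone (0.32, adjusted p = 0.0915) and with the average-linkage dye-bias block (0.07, adjusted p = 0.88). DNAJC21, which acts in ribosome assembly, was higher in IVD than in AI embryos by 0.65 ± 0.22 (SE, adjusted p = 0.0159), lost with the Ward dye-bias block (0.67, adjusted p = 0.0654), while the difference became 1.15 with the replicate block. DNAJC17, a nuclear J protein, was higher in IVD than in AI embryos by 0.39 ± 0.13 (SE, adjusted p = 0.0124), lost under 3 of 10 alternatives (adjusted p up to 0.129). DNAJC11, a protein of the mitochondrial membranes, was higher in IVF than in IVD embryos by 0.45 ± 0.11 (SE, adjusted p = 0.000965), lost under 5 of 11 alternatives (adjusted p up to 0.35). Its clones differed in size: for IVF versus IVD 1 clone gave 0.63 and 0.71 on its rows and the other 0.30 and 0.22 (adjusted p = 0.15 on the last). The first clone gave -0.66 and -0.49 for IVD versus AI and the other 0.01 and 0.05. The IVF versus IVD calls of DNAJA2 (0.33), DNAJB1 and DNAJB11 (0.38) were each lost when any 1 of 11, 12 or 7 embryos was left out (adjusted p up to 0.0855). DNAJB11 lost that call also under 4 of 10 alternatives (adjusted p up to 0.973), with a difference of 0.017 with the average-linkage dye-bias block. DNAJA2 lost it under 4 of 11 alternatives (adjusted p up to 0.86) and turned to -0.14 with the average-linkage block. DNAJC12, DNAJC14, DNAJC16, DNAJC24 and DNAJC4 were called in no comparison.

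**Figure D4:**
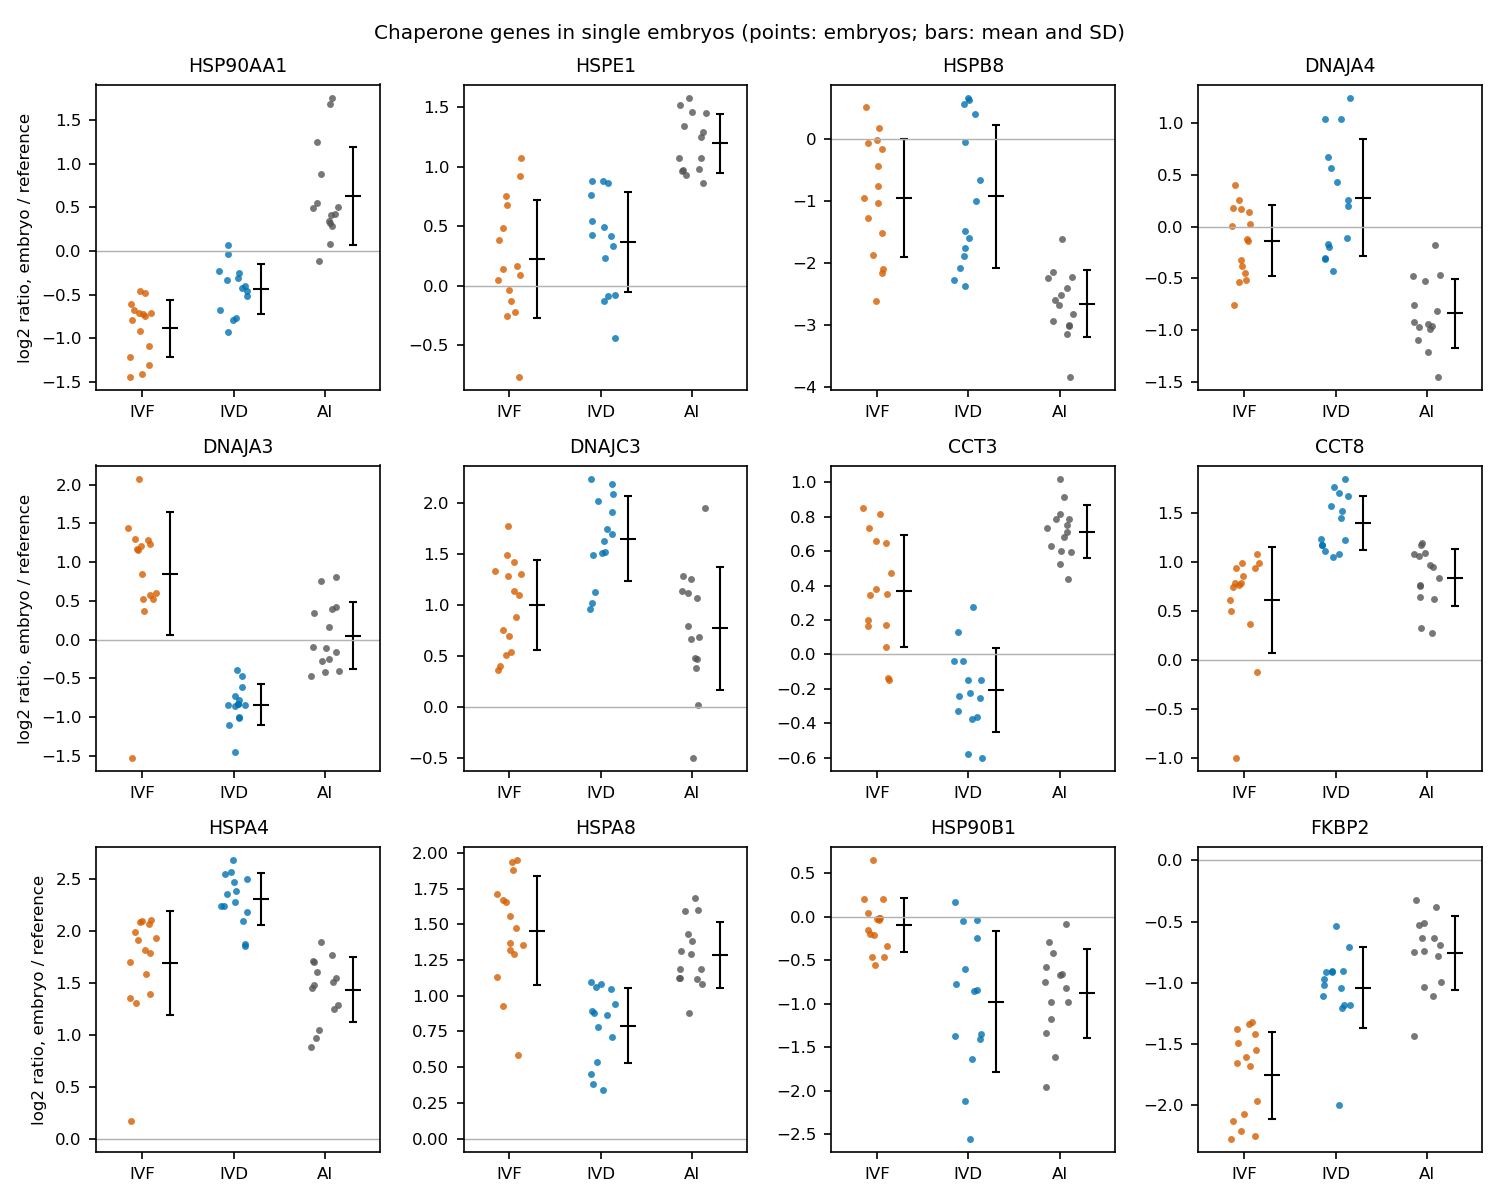
Log2 ratios of single embryos (points) with group mean and SD (bars) for 12 chaperone genes, IVF left of IVD and AI. All 15 IVF embryos lie below all 14 AI embryos for HSP90AA1, and all 14 IVD embryos lie below all 14 AI embryos for CCT3.

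HSPB8, a small heat shock protein that works with BAG3 in clearing misfolded proteins, had the largest differences from AI embryos among the members. It ranged from -2.61 to 0.51 in IVF embryos (median -0.95, n = 15), -2.38 to 0.65 in IVD embryos (median -1.24, n = 14) and -3.83 to -1.62 in AI embryos (median -2.64, n = 14). The AI embryos were all well below 0, and the other groups were spread from the AI range up to above 0. HSPB8 was 3.25-fold higher in IVF than in AI embryos, a log2 difference of 1.70 ± 0.33 (SE, adjusted p = 7.46e-05), and 3.32-fold higher in IVD than in AI embryos, 1.73 ± 0.33 (SE, adjusted p = 4.37e-05). IVF and IVD embryos differed with a difference of -0.03 ± 0.33 (SE, adjusted p = 0.953). Its SD was the largest of any member in IVF (0.96) and IVD embryos (1.15), against median member SDs of 0.38 and 0.33. The IVD call held under all 11 alternatives (1.43 to 1.98), and the IVF call was lost with the average-linkage dye-bias block (0.74, adjusted p = 0.262). HSPB1 was called in no comparison, with differences of 0.06 for IVF versus AI and 0.05 for IVD versus AI, and the dyes gave opposite results. The IVF versus AI difference was -0.44 on the Cy3 arrays alone (adjusted p = 0.03) and 0.55 on the Cy5 arrays alone (adjusted p = 0.00476), and IVF versus IVD gave -0.41 (adjusted p = 0.0307) and 0.43 (adjusted p = 0.0192).

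HSPE1, the lid of the mitochondrial chaperonin, ranged from -0.77 to 1.07 in IVF embryos (median 0.14, n = 15), -0.44 to 0.88 in IVD embryos (median 0.42, n = 14) and 0.86 to 1.57 in AI embryos (median 1.16, n = 14). The AI embryos formed a tight group near the top of the range, and few IVF and IVD embryos reached it. HSPE1 was lower than in AI embryos with a difference of -0.98 ± 0.15 (SE, adjusted p = 2.18e-06) in IVF and with a difference of -0.83 ± 0.15 (SE, adjusted p = 1.87e-05) in IVD embryos. The IVF call held under all 11 alternatives (-1.001 to -0.79) and the IVD call under all 11 alternatives (-1.03 to -0.58). Its partner HSPD1, the chamber, was measured in too few embryos to be tested: the means of its 2 rows were -0.25 (n = 3) and -0.75 (n = 4) in IVF, 0.10 and 0.03 (n = 14 each) in IVD, and 0.88 (n = 6) and 0.60 (n = 8) in AI embryos. PPIF, the mitochondrial cyclophilin that regulates the permeability transition pore, ranged from -0.03 to 1.46 in IVF embryos (median 0.40, n = 15), -0.50 to 0.38 in IVD embryos (median -0.08, n = 14) and -1.02 to 0.54 in AI embryos (median -0.50, n = 10). Its values were highest in IVF embryos, with overlap between all groups. PPIF was higher in IVF embryos by 0.92 ± 0.15 (SE, adjusted p = 6.16e-06) against AI, under all 10 alternatives (0.77 to 1.05). Against IVD it was higher by 0.50 ± 0.13 (SE, adjusted p = 0.00205), lost under 4 of 10 alternatives (adjusted p up to 0.347). In IVD it was higher than in AI embryos by 0.42 ± 0.15 (SE, adjusted p = 0.0198), lost on the Cy5 arrays alone (0.16, adjusted p = 0.453) and without the IVD embryos of shared number (0.40, adjusted p = 0.0534), while the difference became 0.72 on the values as given and 0.68 on the Cy3 arrays alone. Its 2 rows, both of 1 clone, disagreed in these comparisons: IVF versus IVD gave 0.68 (adjusted p = 0.000938) on the first and 0.19 (adjusted p = 0.296) on the second, and IVD versus AI gave 0.28 (adjusted p = 0.247) and 0.47 (adjusted p = 0.00993). Of the 5 tested mitochondrial members, 2 were higher and 1 lower for IVF versus AI, where 19.9% of all features were higher and 17.7% lower. For IVD versus AI 1 was higher and 3 lower (25.5% and 21.0% of all features), and for IVF versus IVD 3 were higher and none lower (22.3% and 25.2% of all features). On the values as given the counts were 2 higher and 1 lower, 1 and 2, and 1 and none for the same comparisons.

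The TRiC chaperonin folds actin and tubulin in a ring of different subunits, 4 of which were tested, and CCT3 and CCT8 were called in opposite directions for IVD versus AI. CCT3 ranged from -0.15 to 0.85 in IVF embryos (median 0.35, n = 15), -0.60 to 0.27 in IVD embryos (median -0.23, n = 14) and 0.44 to 1.02 in AI embryos (median 0.72, n = 14). Every IVD embryo lay below every AI embryo, which was so for 2.84% of all features in either direction and for no other member. CCT3 was lower in IVD than in AI embryos with a difference of -0.92 ± 0.10 (SE, adjusted p = 7.87e-10), under all 11 alternatives (-0.99 to -0.67). It was also lower in IVF than in AI embryos with a difference of -0.34 ± 0.10 (SE, adjusted p = 0.00578), lost on the values as given (-0.34, adjusted p = 0.11), on the Cy3 arrays alone (-0.08, adjusted p = 0.584), with the replicate block (-0.31, adjusted p = 0.109) and with the average-linkage dye-bias block (-0.47, adjusted p = 0.0842), while the difference became -0.61 on the Cy5 arrays alone. Against IVD it was higher in IVF embryos by 0.58 ± 0.10 (SE, adjusted p = 5.33e-06), lost on the values as given (0.33, adjusted p = 0.076) and with the average-linkage dye-bias block (0.44, adjusted p = 0.0642), while the difference became 0.87 on the Cy3 arrays alone and 0.29 on the Cy5 arrays alone.

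CCT8 ranged from -0.997 to 1.09 in IVF embryos (median 0.78, n = 15), 1.06 to 1.85 in IVD embryos (median 1.34, n = 14) and 0.28 to 1.19 in AI embryos (median 0.89, n = 14). Here the IVD embryos were the high group, and IVF embryo 1 lay far below the rest. CCT8 was higher in IVD than in AI embryos by 0.56 ± 0.15 (SE, adjusted p = 0.00191) and lower in IVF than in IVD embryos with a difference of -0.78 ± 0.15 (SE, adjusted p = 2.04e-05). The IVD versus AI call held under all 11 alternatives (0.42 to 0.81) and the IVF versus IVD call under all 11 alternatives (-1.03 to -0.59). CCT2 was lower in IVF than in IVD embryos with a difference of -0.43 ± 0.14 (SE, adjusted p = 0.0122), lost on the Cy3 arrays alone (-0.29, adjusted p = 0.0852), with the Ward dye-bias block (-0.04, adjusted p = 0.905) and with the average-linkage dye-bias block (-0.23, adjusted p = 0.475), while the difference became -0.68 on the values as given. CCT4 was called in no comparison.

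In the ER, 10 members were tested. For IVF versus AI 2 were higher (HSP90B1 and DNAJB11) and 5 lower (FKBP2, PPIB, PDIA3, PDIA6 and CALR), where 19.9% of all features were higher and 17.7% lower. For IVD versus AI 1 was higher and 3 lower (25.5% and 21.0% of all features), and for IVF versus IVD 3 were higher and 4 lower (22.3% and 25.2% of all features). On the values as given the counts were 2 higher and 2 lower, 2 and 2, and 1 and 4 for the same comparisons. FKBP2, an ER prolyl isomerase, ranged from -2.28 to -1.32 in IVF embryos (median -1.66, n = 15), -1.998 to -0.54 in IVD embryos (median -0.995, n = 14) and -1.43 to -0.33 in AI embryos (median -0.72, n = 14). The IVF embryos formed the low group, with 1 IVD and 1 AI embryo inside their range. FKBP2 was lower in IVF embryos with a difference of -1.003 ± 0.12 (SE, adjusted p = 4.57e-08) against AI and with a difference of -0.72 ± 0.12 (SE, adjusted p = 7.19e-06) against IVD. The call against AI held under all 11 alternatives (-1.29 to -0.71), and the call against IVD under all 11 alternatives (-1.01 to -0.42), the smallest of them on the Cy3 arrays alone.

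PPIB, the cyclophilin that aids collagen folding, ranged from -1.54 to 0.02 in IVF embryos (median -0.85, n = 15), -1.80 to -0.53 in IVD embryos (median -1.18, n = 14) and -1.02 to 0.71 in AI embryos (median -0.29, n = 14). Most AI embryos lay above most IVD embryos, with the IVF embryos between. It was lower than in AI embryos with a difference of -0.55 ± 0.15 (SE, adjusted p = 0.00452) in IVF and with a difference of -0.87 ± 0.16 (SE, adjusted p = 1.59e-05) in IVD embryos. The IVD call held under all 11 alternatives (-1.05 to -0.62), and the IVF call was lost with the Ward dye-bias block (-0.44, adjusted p = 0.0502) and with the average-linkage dye-bias block (-0.64, adjusted p = 0.126). CALR, the calcium-binding lectin chaperone calreticulin, ranged from -0.32 to 0.25 in IVF embryos (median -0.06, n = 15), -1.27 to 0.70 in IVD embryos (median -0.15, n = 14) and -0.15 to 1.05 in AI embryos (median 0.32, n = 14). The IVF embryos were the tightest group and the IVD embryos the widest. It was lower than in AI embryos with a difference of -0.53 ± 0.15 (SE, adjusted p = 0.00284) in IVD, lost on the values as given (-0.28, adjusted p = 0.217). In IVF it was lower with a difference of -0.37 ± 0.14 (SE, adjusted p = 0.0367), lost on the values as given (-0.37, adjusted p = 0.139), on the Cy5 arrays alone (-0.23, adjusted p = 0.238) and with the replicate block (-0.42, adjusted p = 0.137), while the difference became -0.65 with the average-linkage dye-bias block. That call was also lost without any 1 of 7 embryos (IVF 5, 6 or 19, or AI 3, 6, 8 or 17), with adjusted p up to 0.0734 and differences from -0.41 to -0.32 with each embryo left out in turn.

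PDIA6, a disulfide isomerase, ranged from -1.52 to -0.24 in IVF embryos (median -0.84, n = 15), -1.60 to -0.85 in IVD embryos (median -1.19, n = 14) and -0.89 to 0.33 in AI embryos (median -0.51, n = 14). The AI embryos reached the highest values, and the 3 groups overlapped. It was lower than in AI embryos with a difference of -0.51 ± 0.13 (SE, adjusted p = 0.00141) in IVF, lost on the values as given (-0.50, adjusted p = 0.0536), while the difference became -0.34 on the Cy3 arrays alone, and with a difference of -0.83 ± 0.13 (SE, adjusted p = 1.16e-06) in IVD, under all 11 alternatives (-0.96 to -0.57). Higher PDIA6 in IVF than in IVD embryos, 0.32 ± 0.13 (SE, adjusted p = 0.0345), was lost under 6 of 11 alternatives (adjusted p up to 0.797) and without any 1 of 8 embryos (IVF 2, 3, 13 or 18, or IVD 6, 11, 12_2 or 12_4; adjusted p up to 0.0682). PDIA3, the isomerase that works with the lectin chaperones, was lower in IVF embryos with a difference of -0.61 ± 0.17 (SE, adjusted p = 0.00232) against IVD, under all 11 alternatives (-0.86 to -0.58). Against AI it was lower with a difference of -0.55 ± 0.17 (SE, adjusted p = 0.00824), lost on the values as given (-0.54, adjusted p = 0.0502), with the replicate block (-0.40, adjusted p = 0.222) and with the average-linkage dye-bias block (-0.78, adjusted p = 0.0654).

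Of the 7 cyclophilins, 1 was higher and 3 lower for IVF versus AI, where 19.9% of all features were higher and 17.7% lower. In IVD versus AI 1 was higher and 2 lower (25.5% and 21.0% of all features), and in IVF versus IVD 1 was higher and 1 lower (22.3% and 25.2%). On the values as given the counts were 1 higher and 2 lower, 1 and 1, and none and 1 for the same comparisons. PPIH, a cyclophilin of the spliceosome, ranged from -1.07 to 1.33 in IVF embryos (median -0.01, n = 15), 0.02 to 1.21 in IVD embryos (median 0.72, n = 14) and 0.11 to 1.93 in AI embryos (median 1.04, n = 14). The IVF embryos extended furthest down, with overlap between all groups. PPIH was lower in IVF embryos with a difference of -1.07 ± 0.19 (SE, adjusted p = 1.8e-05) against AI, lost with the average-linkage dye-bias block (-0.95, adjusted p = 0.0784). Against IVD it was lower with a difference of -0.73 ± 0.19 (SE, adjusted p = 0.00123), lost with the Ward dye-bias block (-0.70, adjusted p = 0.0801) and with the average-linkage dye-bias block (-0.60, adjusted p = 0.183). PPIG, a nuclear cyclophilin, was lower in IVF than in AI embryos with a difference of -0.54 ± 0.18 (SE, adjusted p = 0.0151), lost under 4 of 10 alternatives (adjusted p up to 0.238). On its own 1 of its 2 rows was called (-0.71, adjusted p = 0.00501), and the other gave -0.30 (adjusted p = 0.255). PPIA, the target of cyclosporin, was lower in IVD than in AI embryos with a difference of -0.41 ± 0.10 (SE, adjusted p = 0.00131), lost on the values as given (-0.15, adjusted p = 0.441) and on the Cy5 arrays alone (-0.25, adjusted p = 0.0515). PPIC and PPID were called in no comparison.

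FKBP1A, the binding protein of FK506 and rapamycin, was lower in IVD than in AI embryos with a difference of -0.81 ± 0.12 (SE, adjusted p = 3.3e-07), under all 11 alternatives (-0.95 to -0.56). It was higher in IVF than in IVD embryos by 0.60 ± 0.12 (SE, adjusted p = 3.68e-05), lost on the values as given (0.35, adjusted p = 0.0652). FKBP4, a partner of HSP90 at steroid receptors, was higher in IVF than in IVD embryos by 0.52 ± 0.15 (SE, adjusted p = 0.00312), lost on the values as given (0.27, adjusted p = 0.278) and with the average-linkage dye-bias block (0.36, adjusted p = 0.282). The 3 FK506-binding proteins were thus called in differing directions for IVF versus IVD, with FKBP2 lower and the other 2 higher.

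Across embryos of 1 group, members spread about as much as other features: the median member SD was 0.38 in IVF, 0.33 in IVD and 0.41 in AI embryos, against 0.42, 0.33 and 0.40 for all features. After HSPB8 the widest spread was that of PPIC in AI embryos, with an SD of 0.91. The smallest SDs were those of CALR in IVF (0.17), HSPB1 in IVD (0.14) and CCT3 in AI embryos (0.15). Apart from the genes described above with rows or clones that disagreed, a called gene had at least 1 row that was not called on its own for CALR and DNAJC8 in IVF versus AI, DNAJC17 and DNAJC21 in IVD versus AI, and DNAJA2, DNAJA4 and PDIA6 in IVF versus IVD. Only a single row of DNAJA4 was called there (-0.48, adjusted p = 0.0278). Its other rows gave -0.30, -0.27 and -0.29 (adjusted p = 0.155, 0.199 and 0.319).

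The 9 members left untested had values in fewer than 7 embryos of at least 1 group. They were DNAJB12, DNAJB2, DNAJB6, HSP90AB1, HSPA13, HSPB3, HSPBAP1, HSPD1 and PDIA4. DNAJB6, a suppressor of aggregation, was measured in all 15 IVF and all 14 IVD embryos, with means of 0.53 and 0.51 on its 2 rows in IVF embryos, 0.27 and 0.22 in IVD embryos, and 0.87 (n = 4) and 0.89 (n = 6) in AI embryos. HSPB3, a small heat shock protein, had means of 1.04 and 1.16 in 14 IVD embryos and values in at most 3 IVF embryos and no AI embryo.

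Partners of the chaperones came from 6 lists of other genes, whose counts stand against 19.9% of all features higher and 17.7% lower for IVF versus AI, 25.5% and 21.0% for IVD versus AI, and 22.3% and 25.2% for IVF versus IVD. Of 13 tested co-chaperones of HSP70 and HSP90, 3 were higher and 1 lower for IVF versus AI, 4 higher and 6 lower for IVD versus AI, and 7 higher and 2 lower for IVF versus IVD. TOMM34, which hands precursors to the mitochondrial import pore, was higher in IVF than in AI embryos by 1.89 ± 0.26 (SE, adjusted p = 1.78e-06), with 1.20 on the Cy3 arrays alone. NUDC, an HSP90 co-chaperone, was lower in IVF than in AI embryos with a difference of -1.23 ± 0.19 (SE, adjusted p = 2.32e-06). NUDC was also lower in IVD than in AI embryos, with a difference of -1.72 ± 0.19 (SE, adjusted p = 1.07e-09), and so was TRAP1, the mitochondrial HSP90, with a difference of -0.85 ± 0.13 (SE, adjusted p = 1.54e-06). BAG6 and BAG1, which regulate HSP70, were higher in IVF than in IVD embryos by 1.14 and 0.92. Of the other tested BAG genes, BAG4 was not called there (0.14, adjusted p = 0.428). BAG2 was lower with a difference of -0.77 ± 0.30 (SE, adjusted p = 0.0345), a direction that turned on the Cy5 arrays alone. HSF1, the master factor of the heat shock response, was higher in IVD than in AI embryos by 0.77 ± 0.11 (SE, adjusted p = 9.38e-08). For IVF versus AI it differed by 0.28 ± 0.10 (SE, adjusted p = 0.0316), a call lost under 5 alternatives (adjusted p up to 0.376). It was 1 of 2 tested genes of its list.

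The list of prefoldin subunits and tubulin cofactors, which work ahead of or beside TRiC, had 10 tested genes, among them TXNDC9, which is neither. For IVF versus AI none was higher and 4 were lower (19.9% and 17.7% of all features), and TXNDC9 was not called. PFDN2 had the largest of these differences, -1.29 ± 0.10 (SE, adjusted p = 4.24e-13). PFDN6 (-0.79), TBCB (-0.58) and PFDN1 (-0.25) followed, of which TBCB lost its call with the average-linkage dye-bias block (adjusted p = 0.104) and PFDN1 under 4 alternatives (adjusted p up to 0.54). In IVD versus AI 1 was higher and 3 lower, and in IVF versus IVD 1 was higher and 4 lower, with TXNDC9 among the 4 at -0.65 ± 0.25 (SE, adjusted p = 0.0294). In the wider list of ER folding and the unfolded protein response, 19 genes were tested, with 4 higher and 4 lower for IVF versus AI, 1 and 4 for IVD versus AI, and 6 and 4 for IVF versus IVD. DDIT3, the stress factor CHOP, was higher in IVF than in AI embryos by 0.78, MANF, an ER stress-induced secreted protein, by 0.77, and SYVN1, an ER ubiquitin ligase, by 0.76. GANAB, the glucosidase that trims glycans for the lectin chaperones, was lower with a difference of -0.86. DDIT3 and MANF lost these calls with the average-linkage dye-bias block (adjusted p = 0.0554 and 0.0801). P4HB, the founding disulfide isomerase, was higher in IVF than in IVD embryos by 1.15 ± 0.13 (SE, adjusted p = 5.42e-10). Unlike PDIA3 and PDIA6, P4HB was higher in IVF than in AI embryos, by 0.37 ± 0.13 (SE, adjusted p = 0.0188). In IVD it was lower than in AI embryos with a difference of -0.78 ± 0.13 (SE, adjusted p = 3.02e-06). Whether these calls against AI held under the alternatives is not given here. Of 4 mitochondrial proteases and import factors, none was called for IVF versus AI, 1 was higher and 2 lower for IVD versus AI, and 2 were higher for IVF versus IVD. LONP1, a protease of the mitochondrial matrix, was lower in IVD than in AI embryos with a difference of -0.86 ± 0.11 (SE, adjusted p = 1.98e-08). In the list of other prolyl isomerases only PPWD1 was tested (0.65 for IVD versus AI and -0.68 for IVF versus IVD). These calls were lost with the replicate block (adjusted p = 0.0613) for IVD versus AI and with the average-linkage dye-bias block (adjusted p = 0.155) for IVF versus IVD.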

How the data were processed

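The log2 ratios were deposited by the authors as a single table of 16416 rows and 86 arrays. Per the labels' protocols, each embryo was hybridised against a reference RNA with the dyes exchanged; the sources used here give no method for image analysis or normalization. Cells without a value made up 20.1%, including 16 spots at a common ceiling of 16.61 that were set to missing. Array medians ran from -2.22 to 1.06, so arrays were centred at the median of the 5558 rows that had a value on all of them. The sign of arrays with a Cy3-labelled embryo was turned, and each pair was averaged. The paired arrays were anticorrelated in all 43 embryos. No spot intensities were used, and the number of embryos per group limits the precision.

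Rows with at least 7 measured embryos in every group were kept (10757), and rows of the same single symbol in the platform's annotation, which can be old, were averaged. This gave 6278 features, 3433 of them named genes. Of the table's rows, 11196 have 1 symbol, 190 have several and 5030 are not listed in the annotation. limma 3.58.1 in R 4.3.3 was fitted over all embryos and features, two-sided, with Benjamini-Hochberg adjustment and a threshold of 0.05; the script was tested on simulated data. P-values set the group differences against the spread between embryos within groups. They do not cover differences between collections or hybridisation batches that coincide with a group. IVD embryos 12_1 to 12_4, which share part of a number, may not be independent.

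Alternatives were the values as given, centring on all measured rows, quantile normalization, either dye alone, 2 row filters, the embryo number as a replicate block, the IVD set without the embryos of shared number, and 2 clusterings of embryos by dye bias as a block. Dye bias is the mean of the unturned ratios of an embryo's arrays. Each row on its own and each embryo left out were also tried.

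Values by group are given for the 8 called members with the largest differences in each comparison, the member of each class with the smallest F-test p, and set partner pairs; of other lists, up to 4 called genes per comparison. The members, lists, classes and compartments were chosen with earlier results of these data known. No sequence is printed, and promoter motifs were not analysed here. Figures were drawn with matplotlib 3.10.9.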

Additional observations from a re-analysis of the deposited data

How the results depend on the processing

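For IVF versus AI the 19 called members became 7 with the average-linkage dye-bias block, an alternative chosen after seeing the data under which 8.03% of all features were called. For IVF versus IVD the 24 became 12 with the Ward dye-bias block (25.7% of all features) and 9 with the average-linkage block (20.6%). Few IVF embryos shared a cluster with IVD embryos in either block, so these lost calls do not show that the differences are absent. The cause of the lost calls was not tested. Embryos of the same number shared little of their deviation from the group means: over 21 same-number pairs r ran from -0.187 to 0.213 (median 0.01), with 3 over 0.1. Pairs of different numbers were not set beside them, and a shared collection or batch was not tested. With the replicate block the counts were 13 for IVF versus AI (25.6% of all features called), 19 for IVD versus AI (32.7%), 21 for IVF versus IVD (40.0%) and 29 for the F-test (54.0%). With each embryo left out in turn they ran from 17 to 21, 21 to 24 and 21 to 25 for the 3 comparisons. Shares of all features are not set beside these ranges, so the ranges are no result about chaperones as a set. Among differences called in the main result or under the alternative, directions turned for HSPB1 on the Cy3 arrays alone (-0.44 for IVF versus AI and -0.41 for IVF versus IVD) and for DNAJA2 in IVF versus IVD with the average-linkage block (-0.14). Among the other genes BAG2 turned on the Cy5 arrays alone (1.60 for IVF versus IVD and -0.79 for IVD versus AI), and TBCB on the Cy3 arrays alone (-0.037 for IVF versus IVD). Differences called in neither also changed sign, among them PPIC for IVD versus AI (-0.14, against 0.63 with the replicate block). Spots without a value, which were fewest in IVD embryos, limit which members could be tested.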
